A study of Mus musculus with 28 samples.

Results

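The genes described here are 3 chemokines, Ccl3, Ccl4 and Ccl5, and 6 chemokine receptors, Ccr2, Ccr6, Ccr8, Cxcr3, Cxcr4 and Cxcr6, in regulatory T (Treg) cells of mice with glioblastoma (GBM). They are the 9 rows with these symbols among the 53801 features of an expression table and were picked by symbol, with earlier results of these data known. Treg cells were sorted as TCR+CD4+CD25hi CD127lo cells, with CD8+ cells dumped, from C57BL/6 mice bearing CT2A, a murine GBM line grown in the forebrain. All mice therefore carried a tumor, and an untreated or tumor-free group was not analysed here. Once tumors had reached 2 mm3, mice received 4 doses of 250 µg, 3 days apart, of either the isotype antibody IgG2a (the control) or antibodies to PD1 together with agonist antibodies to GITR (αPD1 + αGITR), and tissue was taken 2 days after the last dose. RNA was sequenced in bulk in 27 libraries, each from a different mouse according to the series description. Some libraries of the same group share a label number whose meaning is not stated, so n counts libraries here. Splenic Treg cells gave 7 libraries with IgG2a and 8 with the antibody pair, and GBM Treg cells gave 5 and 7. Age is not given per group, and mice of both sexes were used in the study. Levels are given as TPM, a measure of transcript abundance that is scaled for gene length and to the same total in every library.

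Chemokines are small secreted proteins that guide leukocytes along concentration gradients, and their receptors are seven-pass membrane proteins that signal through Gi proteins. CCL3, CCL4 and CCL5 are inflammatory CC chemokines that attract T cells and monocytes. CCR2 binds CCL2 and related monocyte chemoattractants, CCR6 binds CCL20, CCR8 binds CCL1, CXCR3 binds the interferon-induced CXCL9, CXCL10 and CXCL11, CXCR4 binds CXCL12 and CXCR6 binds the membrane-anchored CXCL16. In Treg cells such receptors are known to mark effector cells that enter inflamed tissue and tumors, whereas CCR7 and CXCR5 guide cells within lymphoid organs.

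The libraries differed in ways that touch these genes. Foxp3, the transcription factor that defines Treg cells, was between 21.5 and 440 TPM in the 27 libraries, and all 9 Treg and T cell markers examined were detected in each group. Their summed level was higher in GBM, with medians of 599 and 1361 TPM in spleen and GBM after IgG2a and 637 and 2078 TPM after αPD1 + αGITR. All 9 had a higher mean log2(TPM + 1) in GBM in both comparisons, as did 66.1% of all genes tested after IgG2a and 77.6% after αPD1 + αGITR. Of the 9, 5 passed the adjusted threshold after αPD1 + αGITR, where 15.8% of all genes were higher in GBM, and 0 did after IgG2a, where 0.488% were (limma). At an unadjusted p under 0.05, 3 of the 9 were higher in GBM after IgG2a, as were 563 of the 7380 genes tested. The part of these markers in the levels of the chemokine and receptor genes was not tested. The number of genes above 1 TPM ran from 7702 to 17460. The 10 most abundant features took between 31.9% and 78.3% of a library. Read depth is unknown, and the only measure of precision is how far libraries of a group differ. Of the IgG2a GBM libraries, 2 stood apart. Library tumor_369_a had the fewest genes above 1 TPM, 7702. Library tumor_79_a had a summed level of 19 macrophage and microglia markers of 16171 TPM, against 160 to 502 TPM in the other 4 IgG2a GBM libraries. Among GBM libraries after αPD1 + αGITR the same sum ran from 130 to 6515 TPM, with the highest value in library tumor_73_a. In spleen it was 87.3 to 675 TPM after IgG2a and 58.0 to 886 TPM after αPD1 + αGITR.

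The genes lie on 5 chromosomes (GRCm38, GENCODE M21, protein-coding genes). The chemokines form a cluster on chromosome 11, with Ccl5 at chr11:83525778-83530518, Ccl3 at chr11:83647844-83649355 and Ccl4 at chr11:83662584-83664683. Ccl3 and Ccl4 are 13.2 kb apart. On chromosome 9 lie Ccr8 (chr9:120092114-120094906), Cxcr6 (chr9:123806475-123811760) and Ccr2 (chr9:124101950-124113557), the latter pair 290.2 kb apart. Ccr6 is at chr17:8236043-8257141, Cxcr3 at chrX:101731535-101734269 and Cxcr4 at chr1:128588199-128592293. Sequences upstream of the annotated start were found in RefSeq (GRCm38.p6) for 7 of the 9 genes, all but Ccl4 and Ccl5. Those of 4 genes that were higher in GBM than in spleen after αPD1 + αGITR are printed 5′ to 3′ on the gene's strand, cut where the gene begins in either annotation. Capitals mark matches, on either strand, to the kB motif (3 G, any 5 bases, 2 C) or to GGAAA (the NFAT core).
Ccl3, chr11:83649379-83649628 (- strand): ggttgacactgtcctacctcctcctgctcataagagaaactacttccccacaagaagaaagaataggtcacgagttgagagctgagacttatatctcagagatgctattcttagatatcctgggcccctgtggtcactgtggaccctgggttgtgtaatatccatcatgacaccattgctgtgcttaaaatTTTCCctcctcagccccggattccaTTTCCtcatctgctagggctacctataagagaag
Ccr8, chr9:120091883-120092113 (+ strand): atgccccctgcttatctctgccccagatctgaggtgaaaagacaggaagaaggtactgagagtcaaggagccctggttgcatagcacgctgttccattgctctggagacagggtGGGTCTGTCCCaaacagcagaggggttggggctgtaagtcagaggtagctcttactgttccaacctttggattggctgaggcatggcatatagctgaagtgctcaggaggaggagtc
Cxcr3, chrX:101734270-101734397 (- strand): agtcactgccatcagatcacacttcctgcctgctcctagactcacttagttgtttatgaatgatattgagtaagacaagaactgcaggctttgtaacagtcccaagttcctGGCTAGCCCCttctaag
Cxcr6, chr9:123806227-123806474 (+ strand): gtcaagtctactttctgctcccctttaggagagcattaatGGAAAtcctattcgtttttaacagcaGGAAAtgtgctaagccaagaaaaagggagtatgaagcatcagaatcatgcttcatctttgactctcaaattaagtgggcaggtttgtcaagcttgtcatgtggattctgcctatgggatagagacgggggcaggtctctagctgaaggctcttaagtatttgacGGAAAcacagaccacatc
In the 250 bases before the RefSeq start, Ccl3 held 2 matches to GGAAA and none to the kB motif, and Cxcr6 held 3 and none. Ccr8 held 2 overlapping matches to the kB motif and none to GGAAA, and Cxcr3 held 1 and none. Of 32851 promoters of the same length, 55.6% held GGAAA and 45.8% held the kB motif, so both are common. Matches on both strands were counted. No match to the AP-1 motif TGANTCA (found in 6.75% of promoters) or the T-box motif TCACACC (3.33%) was found in the windows of the 7 genes. A match is a string of letters and not a site of binding.

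The first question was how Treg cells in the tumor differ from those in the spleen when mice received only IgG2a. Ccl3, Ccl4, Ccr2 and Cxcr6 were higher in GBM than in splenic Treg cells, with no overlap between libraries. Ccl5 and Ccr8 were 13.8-fold and 14.0-fold higher on average but varied widely and did not pass the adjusted threshold. Ccr6 and Cxcr3 did not pass it either, and Cxcr4 was too low to be tested. In bulk samples fewer cells of a type and less RNA per cell cannot be told apart, so each value is an average over the sorted cells.

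**Figure D1:**
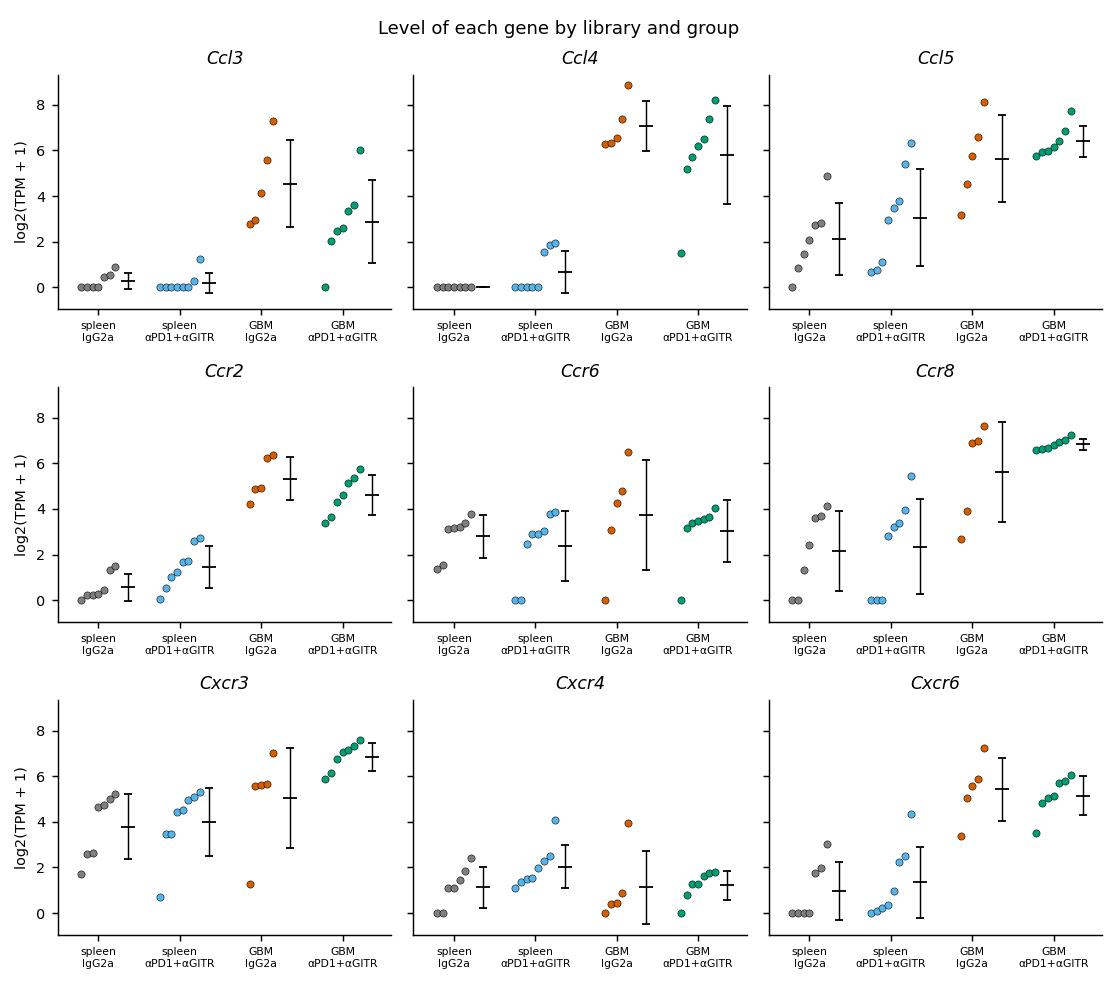
Level of each of the 9 genes in every library, as log2(TPM + 1), in splenic and GBM Treg cells after IgG2a (n = 7 and n = 5) and after αPD1 + αGITR (n = 8 and n = 7). Points are libraries and the bar beside each group is the mean ± SD of the plotted values. All 12 GBM values of Ccr2 lie above all 15 splenic values, whereas no GBM value of Cxcr4 lies above the highest splenic one.

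Among the chemokines, Ccl3 (macrophage inflammatory protein 1α) was 46.6, 16.7, 6.81, 5.78 and 158 TPM in the IgG2a GBM libraries tumor_369_a, tumor_76_a, tumor_77_a, tumor_78_a and tumor_79_a. In splenic Treg cells it was at 0 in 4 of 7 libraries and at most 0.88 TPM. The GBM libraries thus spread widely among themselves, yet each was above every splenic one. The difference in mean log2(TPM + 1) was 4.28 ± 0.96 (SE; limma, adjusted p = 0.0243). The call was lost in 10 of 24 alternatives. The adjusted p was 0.125 without library tumor_79_a, 0.0617 without tumor_369_a, 0.0558 without tumor_76_a and 0.0580 without the splenic library spleen_76_a.

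Ccl4 (macrophage inflammatory protein 1β), its neighbour on chromosome 11, was 168, 79.2, 93.3, 76.6 and 465 TPM in the same 5 GBM libraries. Each of the 7 splenic libraries listed it at 0, and its change is therefore not expressed as a fold. Its difference ranked 2 of the 7380 genes tested (limma, adjusted p = 2.96e-06). The call was kept in each of the 25 alternatives in which Ccl4 was tested. Ccl3 and Ccl4 were both highest in library tumor_79_a and next highest in tumor_369_a.

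Ccl5 (RANTES), which cytotoxic and memory T cells also make, was 7.94, 53.9, 22.1, 96.5 and 275 TPM in GBM and between 0 and 28.6 TPM in spleen, with a splenic median of 3.26 TPM. The 2 lowest GBM libraries, tumor_369_a and tumor_77_a, lay below the highest splenic value. The difference of 3.51 ± 0.95 (SE) had an adjusted p of 0.0807 in limma. It was 4.13 with an adjusted p of 0.0315 without library tumor_369_a, and 3.97 with an adjusted p of 0.0279 without the splenic library spleen_79_b. It was 3.27 with an adjusted p of 0.214 without tumor_78_a, and 2.90 with an adjusted p of 0.280 without tumor_79_a, the library with the highest Ccl5 and the highest macrophage and microglia sum.

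Among the receptors, Ccr2, the receptor that draws monocytes and effector T cells towards CCL2, was 81.3, 17.7, 29.5, 27.9 and 74.4 TPM in the IgG2a GBM libraries. In spleen it was between 0 and 1.86 TPM, with a median of 0.19 TPM. The lowest GBM library was thus far above the highest splenic one, and the difference was 4.75 ± 0.87 (SE; limma, adjusted p = 0.00352). Leaving out any single library kept this call. Without libraries tumor_369_a and tumor_79_a together it was 4.10, with an adjusted p of 0.0937.

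Cxcr6, the CXCL16 receptor of tissue-resident and effector T cells, was 148, 46.7, 57.8, 9.53 and 32.1 TPM in GBM against a splenic range of 0 to 7.15 TPM, with 4 of 7 splenic libraries at 0. The groups did not overlap, and the difference was 4.46 ± 0.92 (SE; limma, adjusted p = 0.0126). The call was lost in 5 of 25 alternatives. Its adjusted p was 0.0501 without library tumor_77_a and 0.141 without tumor_369_a and tumor_79_a together.

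Ccr8, a receptor known to be enriched in tumor Treg cells, split the IgG2a GBM libraries. It was 117, 124 and 198 TPM in libraries tumor_76_a, tumor_77_a and tumor_78_a but 5.48 TPM in tumor_369_a and 14.1 TPM in tumor_79_a. The last 2 values fall within the splenic range of 0 to 16.6 TPM. The difference of 3.45 ± 0.99 (SE) had an adjusted p of 0.110 in limma, and an exact two-sided permutation test of Ccr8 alone gave p = 0.0202. Without library tumor_369_a the difference was 4.18 (adjusted p = 0.0382), and without both libraries it was 4.99 (adjusted p = 0.0347).

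Cxcr3, the receptor of Th1-type T cells, was 49.98, 48.5, 47.0 and 128 TPM in libraries tumor_76_a, tumor_77_a, tumor_78_a and tumor_79_a, all above the splenic maximum of 36.6 TPM, and 1.40 TPM in tumor_369_a, below every splenic library. The difference was 1.24 ± 0.94 (SE; limma, adjusted p = 0.654). It was 2.19 without tumor_369_a (adjusted p = 0.279) and 0.75 without tumor_79_a (adjusted p = 0.787). Ccr6, the CCL20 receptor of Th17-type and memory cells, was 89.3, 27.0, 7.33, 18.3 and 0 TPM in GBM and 1.57 to 12.6 TPM in spleen (difference 0.93 ± 0.96 SE, adjusted p = 0.718). That difference was 0.24 without tumor_369_a and 1.86 without tumor_79_a. Library tumor_369_a thus had the highest level of Ccr2, Ccr6 and Cxcr6 and the lowest of Ccl5, Ccr8 and Cxcr3 of its group. Cxcr4, which retains cells in bone marrow and perivascular niches, was 0, 0.31, 0.36, 0.83 and 14.5 TPM in GBM and at most 4.41 TPM in spleen. Its highest value was in library tumor_79_a.

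Read against all genes, 4 of the 8 genes tested were higher in GBM at an adjusted p under 0.05, where 0.488% of the 7380 genes tested were. The same 4 had groups that did not overlap with GBM higher, where 1.25% of genes did. Of these 8 genes, 7 passed the filter (a mean above 10 TPM in either group) only through their GBM level, so this count is a description. With no filter all 9 were tested and 2, Ccl4 and Ccr2, passed, of 6 calls among 41152 features. The median difference of the 8 was 3.90, or 3.51 over the 7 other than Ccl4, and that of all genes tested was 0.48. Under quantile normalization the median of all genes was 0.04 and that of the 8 was 3.45.

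The same comparison was made after αPD1 + αGITR. All 7 genes that passed the filter, Ccl3, Ccl4, Ccl5, Ccr2, Ccr8, Cxcr3 and Cxcr6, were higher in GBM than in splenic Treg cells, by 2.68 to 5.14 in mean log2(TPM + 1). Ccr2, Ccr8 and Cxcr3 showed no overlap between GBM and spleen. Ccr6 and Cxcr4 had a mean of at most 10 TPM in both tissues and were not tested.

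Ccl3 was between 0 and 64.9 TPM in the 7 GBM libraries (median 5.00) and at most 1.40 TPM in the 8 splenic ones, of which 6 were at 0. All GBM libraries except tumor_73_a, at 0, were above every splenic one. The difference was 2.68 ± 0.78 (SE; limma, adjusted p = 0.0260). The adjusted p was 0.0560 without library tumor_72_a and 0.0521 without tumor_80_a, and without tumor_70_b the gene no longer passed the filter. Ccl4 was 1.85 TPM in tumor_73_a and 35.4 to 294 TPM in the other 6 GBM libraries, against at most 2.90 TPM in spleen, where 5 of 8 libraries were at 0. Its difference was 5.14 ± 0.77 (SE; adjusted p = 0.000236). Ccl5 was between 53.3 and 209 TPM in GBM (median 70.1) and between 0.57 and 79.1 TPM in spleen (median 8.41), a difference of 3.35 ± 0.74 (SE; adjusted p = 0.00618). Only 3 GBM libraries were above every splenic one.

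Ccr8 was even within the treated GBM group, with the lowest CV of the 9 genes there. It was 93.7 to 151 TPM in the 7 GBM libraries after αPD1 + αGITR (median 109, CV 17.8%) and 0 to 42.0 TPM in spleen (median 7.16), where 3 libraries were at 0. The difference was 4.49 ± 0.72 (SE; limma, adjusted p = 0.000402). Cxcr3 ran from 58.6 to 191 TPM in GBM (median 134) and from 0.65 to 38.7 TPM in spleen (median 21.4). The tissues differed by 2.85 ± 0.60 (SE; adjusted p = 0.00428), and each GBM library was above each splenic one. Ccr2 was 9.54 to 52.1 TPM in GBM (median 23.5) and 0.04 to 5.66 TPM in spleen (median 1.75), a difference of 3.15 ± 0.59 (SE; adjusted p = 0.00177). Cxcr6 was 10.3 to 65.4 TPM in GBM (median 34.4) and 0 to 19.5 TPM in spleen (median 0.62). It overlapped only through library tumor_73_a in GBM and spleen_74_a in spleen, and the difference was 3.803 ± 0.672 (SE; adjusted p = 0.00114).

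Ccr6 overlapped between the tissues, at 9.35 ± 4.77 TPM in GBM (SD, n = 7) and 6.33 ± 4.99 TPM in spleen (SD, n = 8), and the exact permutation test gave p = 0.332. Cxcr4 was the only gene of the 9 with a lower mean in GBM, at 1.48 ± 0.89 TPM (SD, n = 7) against 4.24 ± 4.93 TPM (SD, n = 8). The exact permutation test gave p = 0.0614, and the splenic mean rested in part on library spleen_74_a at 16.1 TPM.

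Of all 7506 genes tested, 15.8% were higher in GBM at an adjusted p under 0.05, and 2.96% had groups that did not overlap with GBM higher. Of the 9 genes, 7 were tested and called, and 3 did not overlap. Ccl3, Ccl4, Ccr2 and Cxcr6 passed the filter through GBM alone, so this count is a description. Ccl5, Ccr8 and Cxcr3 had a mean above 10 TPM in spleen as well. For Ccr8 that mean was 10.01 TPM, with a median of 7.16 TPM and the highest value, 42.0 TPM, in spleen_80_a. The splenic median of Ccl5 was 8.41 TPM. With no filter all 9 were tested and 5, Ccl4, Ccr2, Ccr8, Cxcr3 and Cxcr6, passed, of 256 calls among 42667 features. The median difference of the 7 was 3.35 and that of all genes tested was 0.95. Quantile normalization brought these to 2.49 and 0.15 and kept 6 of the 7 calls, all but that of Ccl3.

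**Figure D2:**
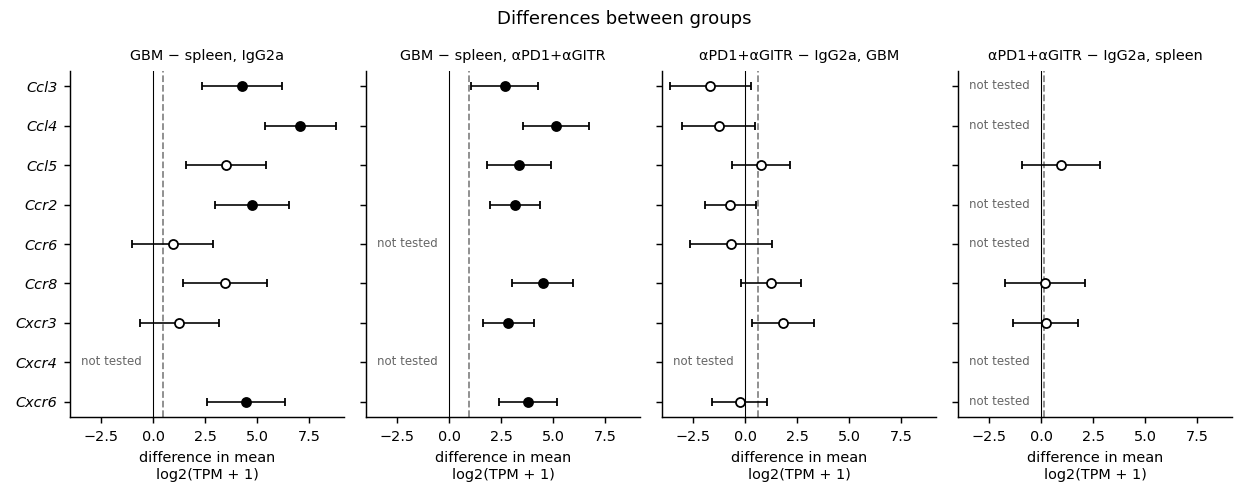
Difference in mean log2(TPM + 1) between groups with its 95% confidence interval, for each gene that passed the filter, in the 4 comparisons. Filled points passed an adjusted p of 0.05 in limma, open points did not, and the dashed line is the median of all genes tested. Filled points occur only in the comparisons of tissues, 4 after IgG2a and 7 after αPD1 + αGITR. The value for Ccl4 after IgG2a is a difference from a group listed at 0 and not a fold change.

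The next question was what αPD1 + αGITR changed in GBM Treg cells. No gene of the 9 passed the adjusted threshold, as no gene of the 7848 tested did (limma, 0%). Cxcr3 had the largest positive difference, Ccl3 and Ccl4 the largest negative ones, and each of the 9 genes had overlapping groups.

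Cxcr3 averaged 123 ± 47.3 TPM after αPD1 + αGITR (SD, n = 7) and 55 ± 45.7 TPM after IgG2a (SD, n = 5), a ratio of 2.23. Of the treated libraries 4 of 7 were above every IgG2a library. The difference was 1.82 ± 0.73 (SE; limma, adjusted p = 0.173), and the exact permutation test gave p = 0.0152. It was the only one of the 8 genes tested with an unadjusted p under 0.05, where 22.3% of all genes tested had one. Across the alternatives its difference lay between 0.87, without tumor_369_a, and 2.31, without tumor_79_a, with adjusted p from 0.102 to 0.669.

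Ccr8 averaged 115 ± 20.4 TPM after αPD1 + αGITR (SD, n = 7) and 91.7 ± 81.4 TPM after IgG2a (SD, n = 5). The CV was 17.8% in the treated and 88.7% in the IgG2a group, where the low values were those of libraries tumor_369_a and tumor_79_a. The difference of 1.22 ± 0.69 (SE, adjusted p = 0.294) became -0.32 without these 2 libraries. Ccl5 averaged 93.4 ± 54.9 TPM and 91.1 ± 108 TPM in the same groups, a difference of 0.77 ± 0.67 (SE, adjusted p = 0.482). It was 0.15 without tumor_369_a and 1.38 without tumor_79_a.

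Ccl3 was a median of 5.00 TPM after αPD1 + αGITR against 16.7 TPM after IgG2a, and 4 of 7 treated libraries were below every IgG2a library. The difference was -1.68 ± 0.93 (SE; limma, adjusted p = 0.283), -0.99 without tumor_79_a and -0.42 without tumor_369_a and tumor_79_a. Ccl4 had medians of 71.3 and 93.3 TPM, again with 4 of 7 treated libraries below every IgG2a library, and a difference of -1.27 ± 0.84 (SE, adjusted p = 0.358). It was -0.83 without tumor_79_a and -0.11 without tumor_79_a and tumor_73_a. Ccr2, Ccr6 and Cxcr6 differed by -0.72, -0.69 and -0.28, with adjusted p between 0.453 and 0.796. Their 95% intervals, -1.95 to 0.51, -2.66 to 1.29 and -1.59 to 1.04, leave room for a change of either sign. Without tumor_369_a the differences were -0.46, 0.0058 and 0.17, and without tumor_79_a they were -0.49, -1.62 and -0.37. Without both, Ccr2 differed by -0.07. Of all genes tested, 2.19% had groups that did not overlap, and none of the 9 did. The median difference of the 8 genes tested was -0.48 and that of all genes was 0.62. Quantile normalization brought these to -0.66 and 0.13.

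In the spleen, 3 of the 9 genes reached the filter and none passed the adjusted threshold. Ccl5 averaged 19 ± 27.7 TPM after αPD1 + αGITR (SD, n = 8) and 6.59 ± 9.96 TPM after IgG2a (SD, n = 7), a difference of 0.93 ± 0.92 (SE). Ccr8 differed by 0.18 ± 0.95 (SE) and Cxcr3 by 0.21 ± 0.77 (SE). The adjusted p was 0.9997 for each of them in limma. No gene of the 6634 tested passed the adjusted threshold (0%), 2.53% had an unadjusted p under 0.05, and none of these 3 did. Below the filter, Ccr2 averaged 2.26 ± 2.07 TPM after αPD1 + αGITR (SD, n = 8) and 0.604 ± 0.741 TPM after IgG2a (SD, n = 7), with 4 of 8 treated libraries above every control library. The exact permutation test of Ccr2 gave p = 0.0522.

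Whether the treatment difference itself differed between GBM and spleen was tested as an interaction over all 4 groups. None of the 8 genes tested passed (limma, 0% of 8687 genes), and none had an unadjusted p under 0.05, where 12.2% of all genes did. The lowest adjusted p was 0.461, for Ccl4 (-1.95 ± 1.05, SE) and Ccr2 (-1.60 ± 0.87, SE). Cxcr3 had the largest positive value, 1.60 ± 1.10 (SE, adjusted p = 0.584). The treatment differences in GBM and spleen were thus not shown to differ for any of these 8, and Cxcr4 was too low to be tested.

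In GBM Treg cells after αPD1 + αGITR the mean levels ran from Cxcr3 (123 TPM), Ccr8 (115), Ccl4 (101) and Ccl5 (93.4) through Cxcr6 (39.1), Ccr2 (27.2), Ccl3 (14.0) and Ccr6 (9.35) to Cxcr4 (1.48). Within the first 4 and within Cxcr6, Ccr2, Ccl3 and Ccr6, each gene lay within 1 SD of its neighbour in this order. After IgG2a the GBM order was led by Ccl4 (176 ± 165 TPM, SD, n = 5), followed by Ccr8, Ccl5, Cxcr6, Cxcr3, Ccl3, Ccr2, Ccr6 and Cxcr4, with SDs near or above the gaps between neighbours. In spleen Cxcr3 was the highest of the 9 in both treatment groups, at 18.6 ± 14.1 TPM after IgG2a (SD, n = 7) and 20.8 ± 13.1 TPM after αPD1 + αGITR (SD, n = 8). The sum over the 9 genes was 5.3 to 103 TPM in the 7 splenic libraries after IgG2a and 390 to 1161 TPM in the 5 GBM libraries. After αPD1 + αGITR it was 10.5 to 167 TPM in spleen and 360 to 939 TPM in GBM, so the sums of the tissues did not overlap.

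Library by library, Ccl3 and Ccl4 moved together. Their Spearman correlation was 0.86 over the 27 libraries, which share the tissue difference, 0.89 over the 12 GBM libraries and 0.15 over the 15 splenic ones, where both were mostly at 0. Ccr2 and Ccl4 gave 0.84 over all libraries and 0.62 within GBM, and Ccl5 and Cxcr3 gave 0.81 and 0.71. Ccl4 and Ccr8, by contrast, gave 0.64 over all libraries and -0.47 within GBM. These are descriptions, since all genes of a library share its scaling. The genes whose levels were most like the mean z score of the 9 over 27 libraries, among 8679 genes, were Il18r1 (Spearman 0.91), which encodes an IL-18 receptor chain, Nkg7 (0.89), a cytotoxic granule gene, Crem (0.89), Samsn1 (0.87) and Ahnak (0.87). For single genes the closest were Myo1f for Ccl3 (0.80), Rbpj for Ccl4 (0.87), Gm19585 for Ccl5 (0.88), Lamp2 for Ccr2 (0.85), Haspin for Ccr6 (0.77), Isy1 for Ccr8 (0.89), Irgm1 for Cxcr3 (0.94), Med27 for Cxcr4 (0.80) and Tmem184b for Cxcr6 (0.88). Among the 3 closest were also Bhlhe40 (0.84) and Il1rl1 (0.83), the gene of the IL-33 receptor, for Ccr2, Hif1a (0.88) and Nkg7 (0.86) for Ccr8, Sppl2a (0.89) for Cxcr3, and the transcription factor gene Maf (0.87) for Cxcr6. These likenesses pool both tissues and so share the tissue difference. They were not examined within GBM.

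Because Ccl3, Ccl4, Ccl5 and Ccr2 are also made by myeloid cells, their levels were set beside the summed macrophage and microglia markers of each GBM library. Library tumor_79_a had the highest sum of all 12, with 19 of 19 markers above 1 TPM, and also the highest Ccl3, Ccl4 and Ccl5. Library tumor_73_a had the next highest sum, 6515 TPM. In it Ccl3 was at 0 and Ccl4 at 1.85 TPM, its lowest GBM value. Library tumor_70_b had the lowest sum, 130 TPM, and the highest Ccl3, Ccl4 and Ccl5 of the treated group, 64.9, 294 and 209 TPM. It also had the highest sums of CD8 T cell, NK cell and dendritic cell markers of that group, 36.6, 9.21 and 66.0 TPM. In the IgG2a GBM group tumor_79_a had the highest sums of CD8 T cell and dendritic cell markers, 18.5 and 73.5 TPM. Its NK cell sum was 0. Over the 12 GBM libraries the Spearman correlation with the macrophage and microglia sum was -0.31 for Ccl3, -0.28 for Ccl4, 0.27 for Ccl5, -0.10 for Ccr2, -0.57 for Cxcr6, -0.48 for Ccr8, 0.31 for Cxcr3, 0.42 for Cxcr4 and -0.41 for Ccr6. Without tumor_79_a 3 of the 8 genes tested were called higher in GBM after IgG2a, of 29 calls among 6899 genes. Without tumor_73_a 7 of the 8 tested were after αPD1 + αGITR, of 696 calls among 7419 genes. The part of myeloid or other cells in these levels was not tested.

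**Figure D3:**
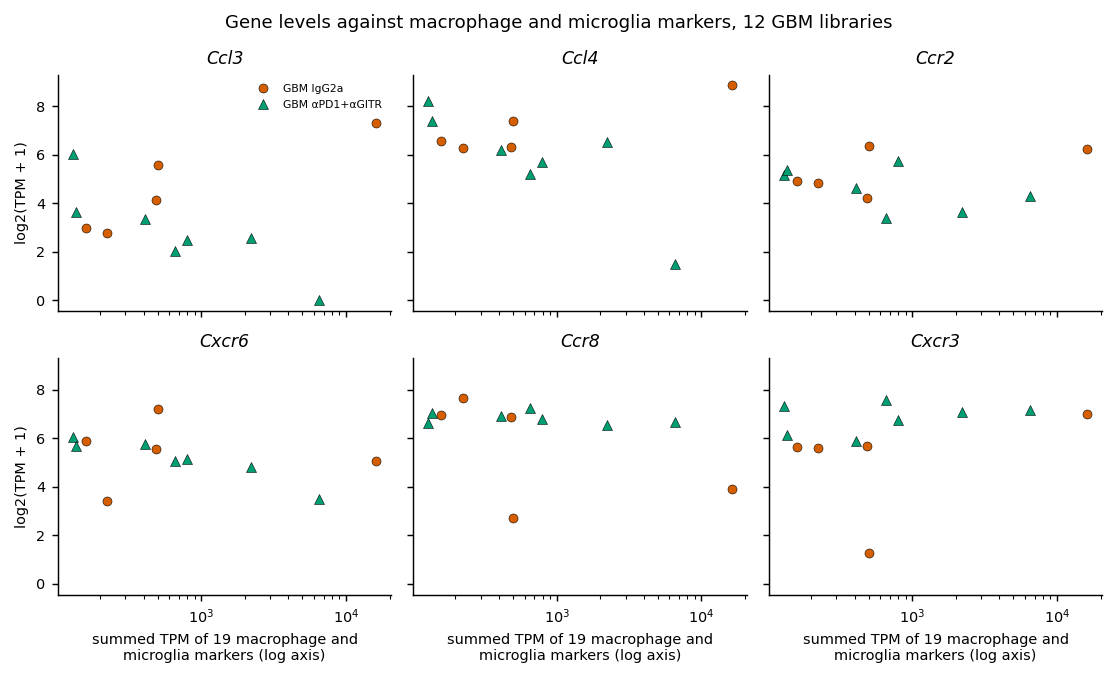
Levels of 6 genes, as log2(TPM + 1), against the summed TPM of 19 macrophage and microglia markers (log axis) in the 12 GBM libraries, circles after IgG2a (n = 5) and triangles after αPD1 + αGITR (n = 7). The library with the largest sum, 16171 TPM, has the highest Ccl3 and Ccl4, and the next, at 6515 TPM, has the lowest.

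Marker lists of other cells were summed in the same way. The summed NK cell markers were at most 6.01 TPM in IgG2a spleen, 36.9 TPM in treated spleen, 4.93 TPM in IgG2a GBM and 9.21 TPM in treated GBM. The 2 CD8 T cell markers summed to at most 10.1, 29.2, 18.5 and 36.6 TPM in the same order. In that order the medians were 142, 189, 123 and 250 TPM for the B cell markers, 3.64, 4.09, 12.02 and 14.0 TPM for the dendritic cell markers, 7.33, 20.1, 52.1 and 24.4 TPM for the neuron and glia markers, and 8.90, 3.73, 3.73 and 1.05 TPM for the neutrophil markers. The erythroid gene Alas2 had medians of 13.8, 44.4, 0 and 0.84 TPM. In IgG2a GBM the NK gene Klra8 and the neutrophil genes S100a8 and Retnlg were at 0 in every library. Of the macrophage and microglia markers, 2 of 10 tested were higher in GBM after αPD1 + αGITR, among them C1qa (2.59 ± 0.84 SE; limma, adjusted p = 0.0381), where 15.8% of all genes tested were. At an unadjusted p under 0.05, 6 of the 10 were higher in GBM there, as were 2553 of the 7506 genes tested. None of the 14 tested passed after IgG2a (limma, 2 at an unadjusted p under 0.05, where 9.93% of all genes had one). Their part in the levels of the chemokine genes was not tested.

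Other chemokine receptors were compared between the same groups. Of 16 other receptors examined, 6 were tested after IgG2a and 5 after αPD1 + αGITR. After αPD1 + αGITR Ccr4, Ccrl2 and Cx3cr1 were higher and Ccr7 and Cxcr5 lower in GBM than in spleen, where 15.8% of all genes tested were higher and 1.61% lower. Ccrl2 and Cx3cr1 passed the filter only through GBM and Cxcr5 only through spleen, so these counts are a description. After IgG2a none passed in limma, and 5 of 6 had an unadjusted p under 0.05, where 9.93% of all genes tested had one. Ccrl2, an atypical receptor, was 24.2 to 68.4 TPM in treated GBM and 0 to 7.79 TPM in spleen (3.39 ± 0.54 SE, adjusted p = 0.000396). Cx3cr1, the fractalkine receptor, differed by 2.97 ± 0.68 (SE, adjusted p = 0.00756) and Ccr4, a receptor of skin-homing and Treg cells, by 2.35 ± 0.74 (SE, adjusted p = 0.0344).

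Ccr7, which guides T cells into lymph nodes and splenic white pulp, was 31.3 to 165 TPM in spleen and 3.79 to 57.1 TPM in GBM after αPD1 + αGITR (-2.15 ± 0.56 SE; limma, adjusted p = 0.0152). Cxcr5, the follicular receptor, was 11.4 to 125 TPM in spleen and 0 to 5.75 TPM in GBM (-4.54 ± 0.60 SE, adjusted p = 8.44e-05). After IgG2a they differed in the same direction, by -2.67 (adjusted p = 0.181) and -1.95 (adjusted p = 0.4663). Neither passed the threshold there, and the difference between the treatments was not called for either gene (interaction, adjusted p = 0.861 for Ccr7 and 0.325 for Cxcr5).

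**Figure D4:**
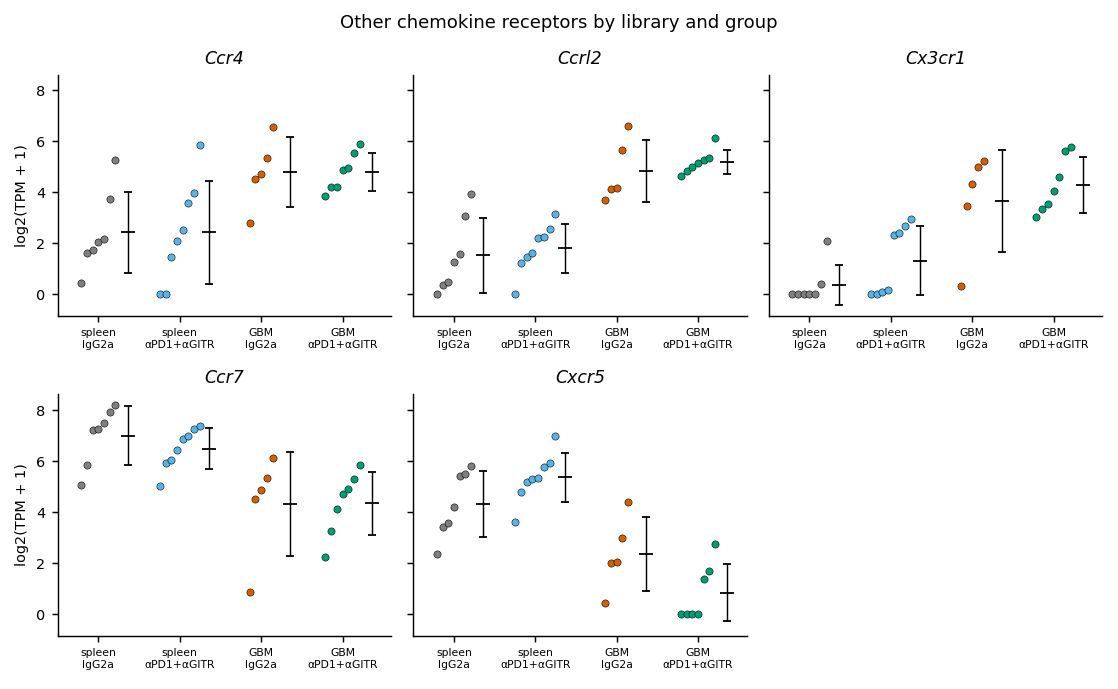
Levels of 5 further chemokine receptors, as log2(TPM + 1), by library and group (n = 7, 8, 5 and 7 from left to right). Points are libraries and the bar beside each group is the mean ± SD of the plotted values. Ccrl2 in treated GBM lies above all treated spleen libraries, and Cxcr5 lies below all of them.

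Ligands were measured in the sorted cells only, which says nothing of their level in the tissue. Of 34 other chemokine ligands in the table, 6 were tested after IgG2a with none called in limma (1 at an unadjusted p under 0.05, where 9.93% of all genes had one), and 2 after αPD1 + αGITR with 1 called, where 15.8% of all genes were higher. The called gene was Cxcl10, a CXCR3 ligand that passed the filter only through GBM, at 4.15 to 32.7 TPM in treated GBM and at most 2.71 TPM in treated spleen (3.19 ± 0.66 SE; limma, adjusted p = 0.00355). After IgG2a Cxcl10 was 0, 15.1, 3.14, 0.90 and 95.9 TPM in GBM, the highest again in library tumor_79_a. Cxcl9 and Cxcl11, the other ligands of CXCR3, did not exceed 6.84 and 2.96 TPM in any library. Cxcl16, the CXCR6 ligand, averaged 26.4 ± 44.0 TPM in treated GBM (SD, n = 7) and 1.28 ± 1.78 TPM in treated spleen (SD, n = 8), with an adjusted p of 0.0573 and its highest value, 124 TPM, in tumor_73_a. In IgG2a GBM it was 147 TPM in tumor_79_a and at most 13.7 TPM in the other 4 libraries. These are the libraries with the highest macrophage and microglia sum of their groups. Ccl20, the CCR6 ligand, was at most 1.15 TPM and Ccl1, the CCR8 ligand, at most 13.5 TPM. Ccl2, the CCR2 ligand, was 145 TPM in library tumor_79_a and at most 2.49 TPM in the other 4 IgG2a GBM libraries, and it was 53.1 TPM in tumor_73_a and at most 4.55 TPM in the other 6 treated GBM libraries. Its difference from spleen after IgG2a was not called (limma, adjusted p = 0.604). Ccl12 and Ccl7, related CCR2 ligands, were 193 and 42.4 TPM in tumor_79_a and at 0 in the other 4 IgG2a GBM libraries. Cxcl12, the CXCR4 ligand, was at most 31.9 TPM, in treated spleen, and at most 3.90 TPM in GBM.

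Among 21 genes that carry or damp the receptor signal, 1 of 18 tested was higher in GBM after IgG2a and 6 of 19 after αPD1 + αGITR, with none lower. Of all genes tested, 0.488% and 15.8% were called higher in these comparisons. Among the called genes, Rgs16 after IgG2a and Gng2 after αPD1 + αGITR passed the filter only through GBM, so these counts are a description. Rgs16, a brake on G protein signaling, was higher in both, by 4.29 ± 0.89 (SE; limma, adjusted p = 0.0127) after IgG2a and 2.84 ± 0.67 (SE, adjusted p = 0.00848) after αPD1 + αGITR. After αPD1 + αGITR the G protein subunit gene Gng2 (2.94, adjusted p = 0.00574), the integrin-activating Rap1b (2.81, adjusted p = 0.00903) and the arrestin gene Arrb2 (2.25, adjusted p = 0.0101) were also higher. So were Rgs19 (2.27, adjusted p = 0.0445) and Rac2, a GTPase of leukocyte movement (1.49, adjusted p = 0.0373). None of the receptor, ligand or signaling genes of these lists passed the adjusted threshold between treatments in either tissue (limma). At an unadjusted p under 0.05 there were 4 in GBM, all among the 19 signaling genes tested, where 22.3% of all genes were, and 0 in spleen.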

How the data were processed

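Smart-Seq2 libraries were made from sorted Treg cells. TopHat alignment to mm10 and RSEM quantification gave the TPM values the authors deposited, and the submitters' processing notes name bcl2fastq and TopHat2 without versions. The deposited table holds TPM plus 1 (other unit) for 53801 features, and it was not thinned by the expression and CV filters of the study. Every library is scaled to one total over all features, so very abundant features lower all other values. Of 28 samples described, 27 were used, and 1 column without a name was left out.

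One was taken from each value. log2(TPM + 1) was compared with limma 3.58.1 in R 4.3.3 (lmFit, eBayes with trend) on the 2 groups at hand. A gene was tested when its mean was above 10 TPM in at least 1 group of the fit. Two-sided p-values received a Benjamini-Hochberg adjustment over all genes tested, with calls at 0.05. A fold change on this scale understates changes of low genes. Single genes were compared by exact two-sided permutation tests of mean log2(TPM + 1), which cannot go below p = 0.00126 for 5 against 7 libraries and 0.000155 for 7 against 8. Errors are SD or SE as named.

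The members and the lists of other receptors, ligands, signaling genes and markers were chosen with earlier results of these data known. Named genes are the 9 members, list genes past the adjusted threshold (with ligands of the members' receptors and close list genes added after values were seen), and the 5 genes most correlated with their mean z score and the 3 with each. Sequences and starts come from RefSeq (GRCm38.p6) and positions from GENCODE M21. The fit was tested on simulated data. Alternatives were a pseudocount of 0.1 or 10, other filters, 3 other scalings, the number of genes detected as a covariate, all 4 groups in one fit, library weights, a replicate block, averaging of libraries with the same number, and leaving out each library. Leaving out 2 GBM libraries together was added after seeing the data. Some items are not reported here.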

Additional observations from a re-analysis of the deposited data

Results flagged for a closer look

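In 6 of the 35 combinations of gene and group examined, 1 library lay far from the rest of its group by Dixon's criterion, which chance meets in about 1 of 20 such groups. In GBM after IgG2a these were Cxcr3 in library tumor_369_a, at 1.40 TPM against 47.0 to 128 TPM in the other 4, and Cxcr4 in library tumor_79_a, at 14.5 TPM against at most 0.83 TPM. In GBM after αPD1 + αGITR it was Ccr6 in library tumor_73_a, listed at 0 TPM where the other 6 had 7.96 to 15.6 TPM. In spleen after αPD1 + αGITR they were Ccl3 in library spleen_70_a at 1.40 TPM, Cxcr3 in library spleen_70_c at 0.65 TPM and Cxcr4 in library spleen_74_a at 16.1 TPM. The causes were not tested.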

How the results depend on the processing

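Of the members tested, 8 after IgG2a (without Cxcr4) and 7 after αPD1 + αGITR (without Ccr6 and Cxcr4), no difference between tissues changed sign under the alternatives run, and neither treatment comparison nor the interaction gained a call. After IgG2a the 4 calls became 2 with a pseudocount of 0.1, 2 with no filter, 2 without the GBM libraries tumor_369_a and tumor_79_a, and 0 with a mean above 10 TPM in every group or a CV below 1, where 1 gene was left to test. They became 6 with a pseudocount of 10, with all 4 groups in one fit or with library weights, and 5 with quantile normalization, with Ccl5 and Ccr8 gained in each and Ccl3 lost in the last. They became 3, without Ccl3, with median-ratio scaling (adjusted p = 0.0554) and with same-numbered libraries averaged (0.0947). Leaving out 1 library gave 3 to 5. After αPD1 + αGITR the 7 calls became 3 and 2 under the latter filters, with 3 and 2 genes tested, and 6 to 7 leaving out 1 library. Averaging libraries with the same number left 6, without Ccl5 (adjusted p = 0.0797). Libraries of both tissues share label numbers whose meaning is not stated. Same-numbered pairs of spleen and GBM libraries correlated between -0.16 and 0.18, and 1 of 9 was above 0.1. With few, variable libraries per group this cannot settle whether the numbers mark pairs, and they were not taken as pairs. Whether same-numbered libraries within a group are related was not tested. Calls among all genes ran from 2 to 262 after IgG2a (42 in the report), 254 to 2279 after αPD1 + αGITR (1310) and 0 to 263 between treatments in GBM (0), the last with library weights. A replicate block on the number left 1 call, Ccl4, after IgG2a and 7 after αPD1 + αGITR. It could not be fitted between treatments. Small differences changed sign. In GBM by treatment, Cxcr6 became 0.36 and Ccr8 -0.10 with library weights, and 0.20 and -0.32 without tumor_369_a and tumor_79_a; leaving out 1 library gave Cxcr6 -0.79 to 0.17 and Ccr6 -1.62 to 0.0058. In spleen, Ccr8 became -0.024 with a pseudocount of 0.1 and Cxcr3 -0.030 with the covariate, -0.018 with weights and -0.091 with averaging; leaving out 1 library gave Ccr8 -0.19 to 0.51 and Cxcr3 -0.13 to 0.68. In the interaction, Ccr6 became 0.58 with a pseudocount of 0.1, 0.55 with the replicate block and -1.19 to 0.44 without 1 library. Ccl5 became 0.025 with a pseudocount of 10, 0.45 without tumor_79_a and tumor_73_a and -0.79 to 0.45 without 1 library. Ccr8 became -0.26 with weights and -0.50 without tumor_369_a and tumor_79_a. The causes were not tested. Depth is unknown, so values of 0 carry no limit.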
